A study of Mus musculus with 12 samples.

Results

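Top2a and 9 further genes tied to cell division were read library by library in rod and whole-retina RNA of mice with and without Shp2 in rods. The genes were Top2a, its paralog Top2b, and Mki67, Spc25, Cdk1, Ccnb1, Ccnd1, Birc5, Rrm2 and Aurkb. They were selected by symbol, and each symbol matched 1 row of the 56748 genes listed. Top2a was chosen because it is labelled in the study's plot of KO against Het rods, so the values of these 10 genes in that contrast are given as a description with no test. The 12 libraries came from littermates at 2 weeks of age. Control mice (Het, whose titles read wt) were RiboTag;Shp2fl/+;i75-Rod-Cre, and KO mice were RiboTag;Shp2fl/fl;i75-Rod-Cre, so that all of them carried Cre under the rhodopsin promoter and HA-tagged Rpl22 in cells in which that Cre acted. RNA was taken from the whole retina and from HA-captured ribosomes (rod TRAP), with 3 libraries of each genotype in each fraction. The labels do not say whether libraries of the same number came from the same mouse, or that replicates were separate animals, so p-values measure the spread between these libraries.

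Type II topoisomerases cut and rejoin both strands of DNA to release tangles. Top2a is made by dividing cells and is needed to separate sister chromatids, whereas Top2b is the form of cells that have left the cycle, neurons included. Mki67 coats mitotic chromosomes, Cdk1 and Ccnb1 form the kinase that drives mitosis, and Birc5 and Aurkb belong to the chromosomal passenger complex. Spc25 is a subunit of the Ndc80 complex, which ties kinetochores to microtubules, Rrm2 makes deoxynucleotides for DNA synthesis, and Ccnd1 (cyclin D1) acts at the entry into the cycle. Rods leave the cycle before they mature, and by 2 weeks of age division in the mouse retina is over.

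Promoters are shown for Top2a, Top2b and Spc25, since the contrast of the paralogs and the split of the Spc25 values between libraries carry the results. Each runs from 250 bases before to 50 bases after the gene start in RefSeq (GRCm38.p6), 5′ to 3′ on the strand of the gene. Top2a is at chr11:99024140-99024439 (minus strand), Top2b at chr14:16364956-16365255 (plus strand) and Spc25 at chr2:69206164-69206463 (minus strand). Capitals mark TTTGAA, the core of the cell cycle homology region (CHR), and CCAAT, each on either strand, and these motifs do not overlap.
Top2a: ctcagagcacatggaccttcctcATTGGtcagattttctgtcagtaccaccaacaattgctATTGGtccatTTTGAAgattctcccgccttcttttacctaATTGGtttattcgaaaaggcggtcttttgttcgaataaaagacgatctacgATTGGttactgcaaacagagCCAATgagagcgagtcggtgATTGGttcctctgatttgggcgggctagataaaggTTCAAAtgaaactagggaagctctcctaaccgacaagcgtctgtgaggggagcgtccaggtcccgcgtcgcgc
Top2b: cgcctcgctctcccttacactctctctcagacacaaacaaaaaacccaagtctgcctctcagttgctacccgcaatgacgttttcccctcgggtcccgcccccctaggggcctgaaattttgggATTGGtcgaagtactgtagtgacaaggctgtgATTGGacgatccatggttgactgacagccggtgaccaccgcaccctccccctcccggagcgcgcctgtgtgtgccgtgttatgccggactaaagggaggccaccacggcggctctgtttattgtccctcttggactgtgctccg
Spc25: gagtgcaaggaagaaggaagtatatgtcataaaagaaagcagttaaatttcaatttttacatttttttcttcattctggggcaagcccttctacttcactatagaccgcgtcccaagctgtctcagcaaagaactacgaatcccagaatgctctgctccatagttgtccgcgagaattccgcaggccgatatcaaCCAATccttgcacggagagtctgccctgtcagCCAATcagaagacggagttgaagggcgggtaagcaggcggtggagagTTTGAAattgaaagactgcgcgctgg
The Top2a promoter held 2 CHR and 6 CCAAT motifs, that of Top2b held 0 and 2, and that of Spc25 held 1 and 2. Promoters of 8 of the 10 genes were found, and TTTGAA was present in 4 of them (Top2a, Mki67, Spc25 and Cdk1), against 17.9% of 32851 promoters of the same length. CCAAT was present in 7 of the 8, against 37.4% of all. An E2F motif (TTTGGCGC, TTTCCCGC or TTTGGCGG) was present in 0 of the 8, against 2.1% of all. These matches are letters in the sequence and not binding sites.

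The deposited values are read counts multiplied by 1 factor per library and rounded, and all values below are in this unit unless a scale is named. Totals were 16263948 to 16265259 in rods and 14525527 to 14527992 in retina, from an estimated 11900000 to 25300000 and 9980000 to 19220000 reads. A value worth 3 reads was 1.93 to 4.10 in rods and 2.27 to 4.37 in retina, which covers counting error only, so single-digit values are close to the limit of detection. The 10 rod markers summed to 2524874 to 3086176 in rods and 734670 to 976196 in retina. In rods the summed levels of other cell types were lower than in retina: 2181 to 3695 against 55009 to 87501 for Müller glia, 262 to 456 against 10871 to 13428 for ganglion cells, 3488 to 5365 against 15559 to 16722 for bipolar cells, 427 to 679 against 7143 to 9223 for amacrine and horizontal cells, 4825 to 7744 against 14226 to 16866 for cones and 212 to 316 against 674 to 1039 for microglia. Ranges for astrocytes were 10 to 40 against 611 to 1121, for endothelium 92 to 143 against 3125 to 3760, for pericytes and smooth muscle 17 to 59 against 690 to 3053, for retinal pigment epithelium 28 to 282 against 231 to 5176, and for blood 19 to 60 against 367 to 2661. Defining markers at 0 in all rod libraries were Pax2, Cspg4 and Lim2, of which Lim2 was at 0 in all retina libraries as well. Lens genes ranged from 6 to 14128 in rods and from 138 to 793631 in retina, lowest in Het replicate 1 and highest in KO replicate 3 of both fractions, and their part in the results was not tested. Ptpn11, which encodes Shp2, was at 2511, 2439 and 2431 (Het rods) against 1735, 2139 and 1971 (KO rods), and its change of -0.26 on the log2 scale was not called by limma (standard error 0.09, adjusted p = 0.064). The table does not separate the floxed exons.

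Top2b was abundant in all libraries and Top2a was not. Top2b read 12515, 9711 and 9797 in Het rods, 8513, 7250 and 8767 in KO rods, 5296, 3521 and 5341 in Het retina and 4479, 5767 and 3145 in KO retina. Top2a read 24, 41 and 420 in Het rods, 0, 50 and 11 in KO rods, 3, 1 and 60 in Het retina and 3, 24 and 5 in KO retina. The highest Top2a values were those of Het rod replicate 3 and Het retina replicate 3, and in KO mice those of replicate 2 in both fractions. Het rods had a Top2a mean of 162 ± 224 (SD, n = 3), KO rods one of 20.3 ± 26.3 (SD, n = 3), and the groups overlapped. The 0 in KO rod replicate 1 allows a value of up to 4.10.

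**Figure D1:**
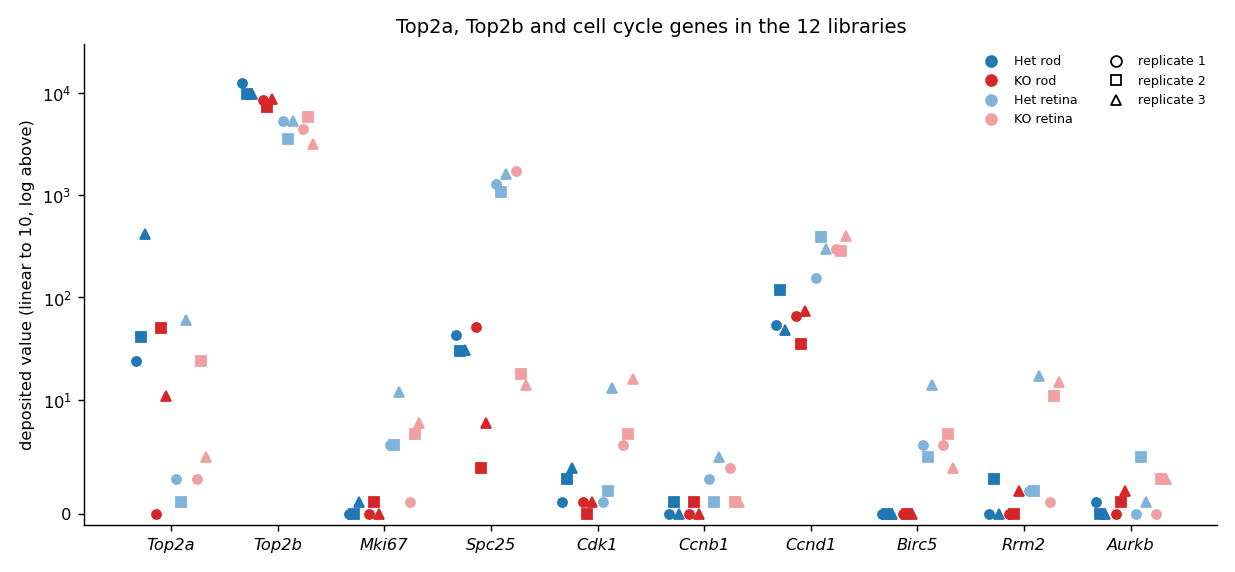
Deposited values of the 10 genes in each library, on an axis that is linear up to 10 and logarithmic above; colours are the 4 groups and symbols the replicate numbers. Top2b lies between 3145 and 12515 in all libraries, whereas Top2a ranges from 0 to 420 and 6 of the other genes stay at 17 or lower.

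Per kilobase of transcript (5221 bases for Top2a and 10335 for Top2b in GENCODE), Top2b stood at 1211, 940 and 948 in Het rods against 4.60, 7.85 and 80.4 for Top2a. The level of Top2b per kilobase was thus 263, 120 and 11.8 times that of Top2a in these libraries, and between 44.97 and 1779 times in retina. On the log2 scale, with a pseudocount of 2, the mean ratio of Top2a to Top2b was -6.10 ± 2.28 in Het rods, -8.54 ± 2.47 in KO rods, -7.91 ± 2.13 in Het retina and -7.82 ± 1.01 in KO retina (SD, n = 3 each). The ratio was 1.803 higher in Het rods than in Het retina (exact two-sided permutation test, p = 0.50, n = 3 per group). Within pairs of the same number it was higher by 1.14, 2.38 and 1.89 in 3 of 3 pairs (exact paired permutation test, p = 0.25, the smallest that 3 pairs allow, chosen after seeing the data). It was 0.72 lower in KO rods than in KO retina, a difference of -0.72 (exact permutation test, p = 0.80), and 0.09 higher in KO than in Het retina (exact permutation test, p = 0.90). The smallest p that 3 against 3 libraries allow is 0.10, so none of these tests could pass 0.05. The direction in KO mice turned to 0.54 without KO rod replicate 1.

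**Figure D2:**
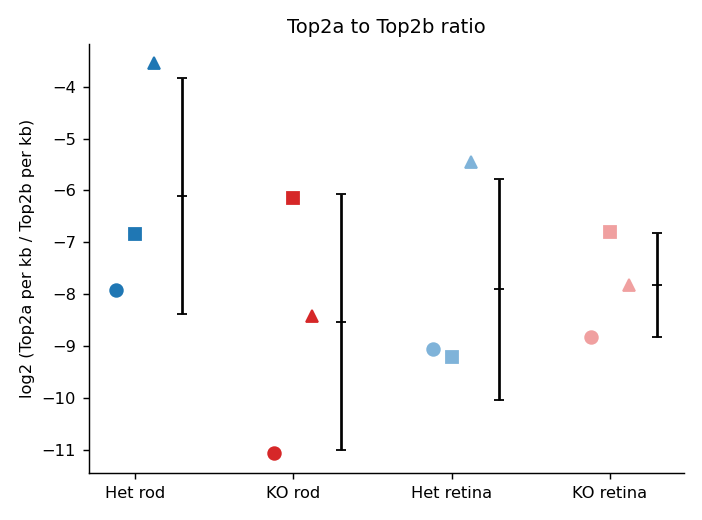
Log2 ratio of Top2a to Top2b per kilobase in each library by group, with the mean and SD of 3 libraries in black. The ratio runs from -11.07 in KO rod replicate 1 to -3.55 in Het rod replicate 3, and all 4 groups overlap.

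Top2b rose in rods relative to retina in both genotypes. After TMM scaling and with a pseudocount of 2, limma gave it a log2 fold change of 1.44 for Het (standard error 0.18, adjusted p = 1.2e-04) and 1.28 for KO mice (standard error 0.20, adjusted p = 4.2e-04). All log2 fold changes below are on this scale, and a gene was called at an adjusted p below 0.05 and a change beyond 0.5. The rod and retina libraries did not overlap for Top2b, nor did they for 11052 of 16110 genes in Het and 11638 of 16121 in KO mice. For Top2a the change was 3.20 in Het mice (standard error 1.37, adjusted p = 0.077 from limma) and was not called. With the replicate number as a block, Top2a had an adjusted p of 8.9e-05 from limma and was called. Het rods are also 1 arm of the contrast in which the study labelled Top2a. Its p-values in Het mice are therefore not independent of that choice. The rod value of Top2a exceeded the retina value of the same number in 3 of 3 pairs. Without Het rod replicate 3 its unblocked change was 1.98 and was not called (adjusted p = 0.19 from limma). Without Het retina replicate 3, which held the highest retina value, it was 4.46 and was called (adjusted p = 0.034 from limma). Leaving out any other single library gave no call (adjusted p from 0.053 to 0.43, limma). In KO mice the change of Top2a was 0.43 (standard error 1.17, adjusted p = 0.76 from limma), and -0.14 without KO retina replicate 1.

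Ccnd1 fell in rods. It read 54, 118 and 48 in Het rods against 154, 392 and 301 in Het retina, and 66, 35 and 73 in KO rods against 300, 283 and 397 in KO retina. By limma it changed by -1.68 on the log2 scale for Het (standard error 0.43, adjusted p = 0.0086) and by -2.14 for KO mice (standard error 0.30, adjusted p = 2.6e-04). Neither pair of groups overlapped, as was so for 11052 of 16110 genes in Het and 11638 of 16121 in KO mice. With the GC trend subtracted together with its level, the change for Het mice was -0.86 and was no longer called (adjusted p = 0.099 from limma), but it was called with the replicate block as well (adjusted p = 0.0054 from limma). Spc25 fell by 4.92 on the log2 scale in Het rods (standard error 0.21, adjusted p = 5.5e-07 from limma), from 1281, 1062 and 1594 in retina to 43, 30 and 31 in rods. In KO mice its change of -2.15 was not called (standard error 2.07, adjusted p = 0.40 from limma). Spc25 read 51, 4 and 8 in KO rods against 1716, 18 and 14 in KO retina, so it was lower in rods at each replicate number. Its change was -0.12 without KO retina replicate 1, a fit that kept KO rod replicate 1 at 51. Without KO retina replicate 3 it was -3.46. Of the 4 members past the filter on low values, 1 was thus higher and 2 were lower in Het rods, where 21.6% of 16110 genes tested were higher and 36.8% lower. In KO mice 1 was higher and 1 lower, where 25.8% of 16121 genes were higher and 36.4% lower. Neither count is a result about the members. Fewer cells of a type and less RNA per cell cannot be told apart in such libraries.

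The 6 scarce members (Mki67, Cdk1, Ccnb1, Birc5, Rrm2 and Aurkb) did not pass the filter in rods and summed to between 1 and 7 in each rod library and between 18 and 62 in each retina library. Birc5 was listed at 0 in all 6 rod libraries, against 6, 5 and 14 in Het retina and 6, 7 and 4 in KO retina. Mki67 was at 0, 0 and 1 (Het rods), 0, 1 and 0 (KO rods), 6, 6 and 12 (Het retina) and 1, 7 and 8 (KO retina). Their rod values, at most 4, lie at or near the 3-read limit. Rrm2 alone of them was tested in retina. Het libraries held 2, 2 and 17, KO libraries 1, 11 and 15, and limma gave a difference of 0.38 (log2, standard error 0.86, adjusted p = 1).

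The library that was high for Top2a was not high for all of the cycle genes. In Het rod replicate 3, where Top2a read 420, Mki67 read 1, Cdk1 4, and Ccnb1, Birc5, Rrm2 and Aurkb 0, and Ccnd1 and Spc25 read 48 and 31. Of the 10 members, 2 (Top2a and Cdk1) had their highest rod value there after TMM scaling, but Cdk1 read 3 in Het rod replicate 2. The 6 scarce members lay at or near the 3-read limit in all rod libraries. For them this count cannot show whether they share the library high for Top2a. In Het retina replicate 3, where Top2a read 60, 5 of the 10 had their highest retina value (Top2a, Mki67, Ccnb1, Birc5 and Rrm2). Mki67 was at 12, Birc5 at 14 and Rrm2 at 17, while Cdk1 read 13 against 16 in KO retina replicate 3. Ccnb1 read 5 there against 4 in KO retina replicate 1, both close to the limit of detection. Of the 72 genes of 4 cell cycle and topoisomerase lists past the filter in rods, 12 (16.7%) were highest in Het rod replicate 3, beside 15.7% of all 13055 genes. In retina 23 of 80 (28.7%) were highest in Het retina replicate 3, beside 24.1% of all 16863 genes.

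Genes whose log2 values were most like those of Top2a over the 6 rod libraries were Cnot8 (Pearson r = 0.996), Rpp14 (0.992), and the pseudogenes Gm4468 (0.989), Gm18119 (0.988) and Gm15027 (0.987). Cnot8 ranged only from 922 to 1136 in rods, whereas Gm4468 read 24, 23 and 237 (Het) and 0, 24 and 11 (KO). Gm18119 read 20, 21 and 259 (Het) and 0, 32 and 4 (KO). Among the 50 genes most like Top2a, 15 were pseudogenes (30%, beside 8.58% of 13054 genes), and 1 of the 72 list genes was among them, Cks2 (r = 0.947). Over the 6 retina libraries the most like were Gm4204 (r = 0.998), Rmst (0.994), Morf4l1 (0.993), Gm13577 (0.992) and Sema3a (0.990). Gm4204 and Gm13577 are processed pseudogenes, and among the 50 most like in retina 4 were pseudogenes (8%, beside 7.32% of all). These correlations are descriptions over 6 libraries of 2 genotypes that differ in depth. In retina Top2a itself did not pass the filter. Outside Het replicate 3 and KO replicate 2 its retina values of 1 to 5 lie at or near the 3-read limit.

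Spc25 differed between KO libraries in the same way in both fractions. It read 1716, 18 and 14 in KO retina and 51, 4 and 8 in KO rods, so that KO replicate 1 lay above all 3 Het libraries in each fraction and KO replicates 2 and 3 lay below them. The range of 6.66 on the log2 scale within KO retina was the 9th widest of 16863 genes, and that of 3.11 in KO rods the 51st of 13055. In Het mice the ranges were 0.61 in retina and 0.50 in rods. Between KO and Het retina Spc25 changed by -3.98 (standard error 1.91, adjusted p = 1 from limma), and without KO retina replicate 1 by -6.16 (standard error 0.27, adjusted p = 0.0029 from limma). That library is singled out here by its own Spc25 value, so the second p-value is no evidence of a change with genotype. Over all single removals the change of Spc25 ran from -6.16 to -2.83. Between KO and Het rods its log2 fold change was -1.23 and, without KO rod replicate 1, -2.16. Of the genes that neighbour it on chromosome 2, Cers6 read 451, 437 and 500 in Het retina and 491, 509 and 361 in KO retina. Abcb11, at far lower values, read 18, 11 and 15 in Het retina and 15, 7 and 5 in KO retina, so that KO replicates 2 and 3 were also its lowest. Nostrin, as low as Abcb11, read 12, 8 and 13 in Het retina and 12, 3 and 14 in KO retina, with KO replicate 3 its highest. Of the partners of Spc25 in the Ndc80 complex, Nuf2 read 16, 13 and 22 in KO retina and Spc24 read 3, 2 and 5.

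**Figure D3:**
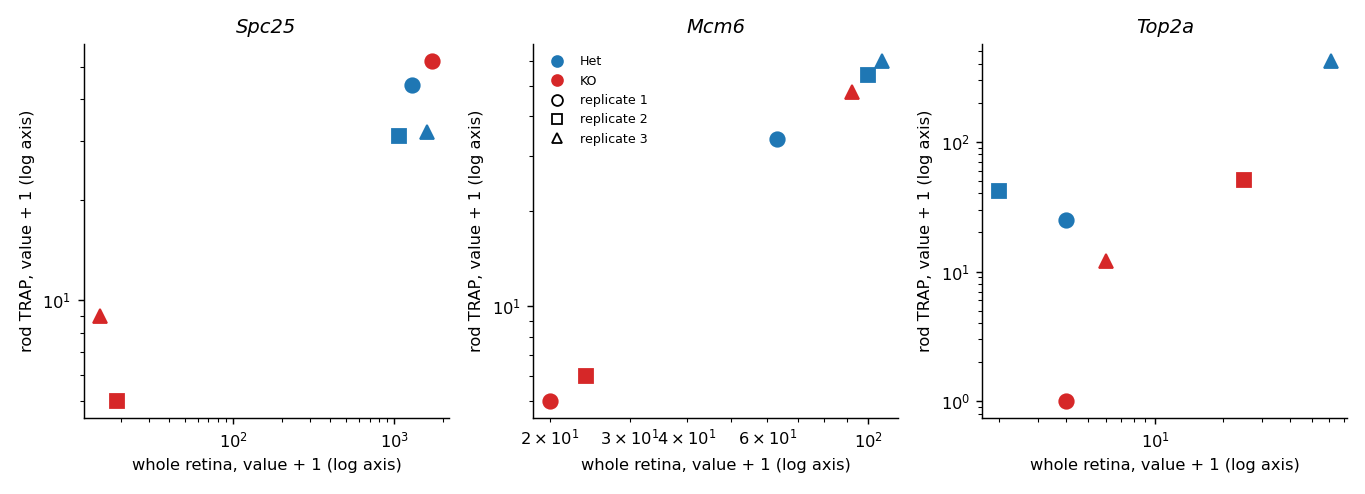
Rod TRAP value against whole-retina value of the library with the same genotype and replicate number for Spc25, Mcm6 and Top2a, each as value + 1 on logarithmic axes. KO replicates 2 and 3 lie low for Spc25 in both fractions, at 18 and 14 in retina and 4 and 8 in rods, and KO replicates 1 and 2 lie low for Mcm6.

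Mcm6, a subunit of the replicative helicase, was singled out after its values were seen, since it also split the KO libraries. Rod values were 33, 53 and 59 (Het) and 4, 5 and 47 (KO), and retina values were 62, 99 and 106 (Het) and 19, 23 and 91 (KO). Here KO replicates 1 and 2 were low and replicate 3 was not. KO replicate 2 was thus low for both Mcm6 and Spc25, replicate 1 for Mcm6 only and replicate 3 for Spc25 only. The range in KO rods was 3.001 on the log2 scale, the 57th widest of 13055 genes.

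In whole retina 0 of 16863 genes (0%) were called between KO and Het mice by limma, and 140 had an unadjusted p below 0.05. Beside Spc25 and Rrm2, Top2b changed by -0.09 (standard error 0.25) and Ccnd1 by 0.30 (standard error 0.36), both with an adjusted p of 1 from limma. Top2a, at 3, 1 and 60 in Het and 3, 24 and 5 in KO retina, did not pass the filter on low values and was not tested there. The groups of 1 of the 80 tested list genes did not overlap, beside 3.5% of all genes. Between KO and Het rods the log2 fold changes were -2.75 for Top2a, -0.30 for Top2b, -1.23 for Spc25 and -0.20 for Ccnd1. That of Top2b was -0.04 with the GC trend subtracted and 0.03 with the mean level kept, and that of Ccnd1 ran from -0.44 to 0.19 as single libraries were left out. Without KO rod replicate 1 the change of Top2a was -1.50, and without Het rod replicate 3 it was -1.54. The KO values of Top2b lay below all Het values, as did those of 44% of all genes in one direction or the other.

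To set the members among related genes, 4 lists were read: 32 genes of DNA replication and S phase, 32 of mitosis and cytokinesis, 23 cyclins, kinases and inhibitors, and 6 topoisomerases and repair enzymes. In Het rods against retina 27 of 77 tested genes were higher and 14 lower, beside 21.6% and 36.8% of all genes, with a median log2 fold change of 0.29 beside -0.11 over all genes. In KO mice 29 of 80 were higher and 16 lower, beside 25.8% and 36.4% of all genes, with a median of 0.38 beside -0.02. Scaling by library size alone, which lowered all rod values against retina by 0.41 (Het) and 0.53 (KO) on the log2 scale, gave 14 higher and 25 lower for Het and 11 and 25 for KO mice. Subtracting the trend with GC content together with its level gave 50 higher and 7 lower for Het and 55 and 7 for KO mice, so the split of these lists depends on the centring. Over all genes, in either direction, the main fit called 9395 of 16110 (Het) and 10037 of 16121 (KO). Library size alone called 8567 and 8990, and the GC subtraction 13463 and 13489, so the calls of all genes moved too.

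Of the replication genes 13 of 26 were higher and 4 lower for Het mice (21.6% and 36.8% of all genes), and 17 of 28 and 4 for KO mice (25.8% and 36.4% of all). Pcna, the sliding clamp, read 2249, 1988 and 2042 in Het rods against 1022, 848 and 1199 in Het retina (log2 fold change 1.30, standard error 0.14, adjusted p = 6.8e-05 from limma), and it rose by 1.09 in KO mice. Dut, which removes dUTP, rose by 1.25 (Het) and 1.03 (KO), and Rrm1, the partner of Rrm2 in ribonucleotide reductase, rose by 1.23 and 1.17. Ccne1 (cyclin E1) fell, with log2 fold changes of -3.33 (Het) and -3.51 (KO), as did Tk1 (thymidine kinase), with -2.25 and -1.79. In Het rods Ccne1 read 2, 4 and 5 and Tk1 1, 5 and 0, near the 3-read limit. The sizes of these falls therefore depend on the pseudocount. Rrm1 was thus read at 1302, 1048 and 1110 in Het rods, where Rrm2 read 0, 3 and 0.

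Of the mitosis genes 9 of 22 were higher and 2 lower for Het mice, and 8 of 23 and 3 for KO mice, beside the same shares of all genes (21.6% and 36.8%, 25.8% and 36.4%). Bub1b, of the spindle checkpoint, read 1085, 888 and 1006 in Het rods and 391, 326 and 409 in Het retina, and rose by 1.65 (standard error 0.14, adjusted p = 1.5e-05 from limma) and by 1.61 in KO mice. Racgap1, a regulator of cytokinesis, rose by 1.31 and 1.40, and Mad2l1, of the same checkpoint as Bub1b, by 1.04 and 0.91. Cdc25c, a phosphatase that activates Cdk1, fell, with log2 fold changes of -3.85 (Het) and -3.32 (KO), as did Anln (anillin), with -2.84 and -3.06. In Het rods Cdc25c read 0, 1 and 0 and Anln 1, 3 and 2, at or below the 3-read limit. The sizes of both falls therefore depend on the pseudocount. Pttg1 (securin) read 335, 325 and 447 in Het rods and 275, 314 and 365 in Het retina.

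Among cyclins, kinases and inhibitors 2 of 23 were higher and 8 lower for Het mice, and 2 and 9 for KO mice. Of all genes 21.6% (Het) and 25.8% (KO) were higher, and the counts of lower genes are near the shares of all genes that were lower (36.8% and 36.4%). Ccnd2 (cyclin D2) fell, with log2 fold changes of -5.09 (Het) and -4.38 (KO), as did Cdk6, which binds D cyclins, with -2.85 in both genotypes (standard errors 0.27 and 0.42). Ccnd2 read 1, 5 and 9 in Het rods, close to the limit of detection, so the size of its fall there depends on the pseudocount. The inhibitor Cdkn2c rose by 1.31 and 1.48. Of the 6 topoisomerase genes 3 were higher for Het and 2 for KO mice, with 0 lower in either, beside the same shares of all genes (21.6% and 25.8% higher, 36.8% and 36.4% lower). Top1, which cuts 1 strand, rose by 1.07 and 0.91, and mitochondrial Top1mt rose by 0.82 and 1.38.

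**Figure D4:**
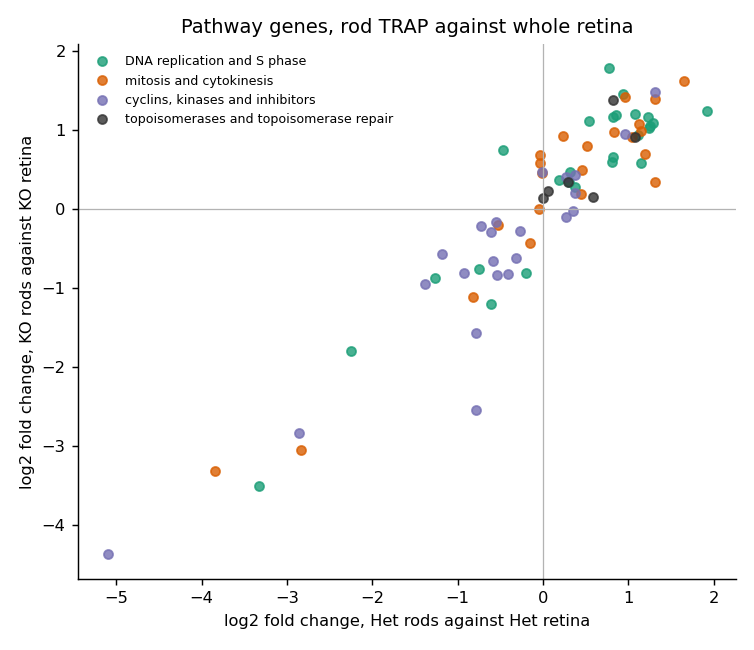
Log2 fold change of each list gene tested in both genotypes, rod TRAP against whole retina, in Het (x axis) and KO mice (y axis); colours are the 4 lists. Ccnd2 lies lowest on both axes, at -5.09 and -4.38.

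Between KO and Het rods 7 of the 72 tested list genes were higher and 3 lower, beside 11.2% and 1.91% of 13055 genes, and the median was -0.06 beside -0.01. The groups of 28 of the 72 did not overlap, beside 44% of all genes, which is no result about the lists. Fen1, which trims Okazaki fragments, was at 4, 5 and 4 (Het) and 15, 21 and 12 (KO) and rose by 1.55 (standard error 0.38, adjusted p = 0.014 from limma). Pold1, the catalytic subunit of DNA polymerase delta, rose by 1.128 from 83, 122 and 90 to 172, 259 and 186. Mcm5, Prc1 and Incenp rose by 0.87, 0.97 and 0.54, and Ccnd3 and E2f4 rose by 0.84 and 0.51. Prim1, a primase subunit, fell by 0.72 on the log2 scale, from 305, 337 and 333 to 168, 171 and 220. Rb1 and Tdp2 fell, with changes of -0.62 and -0.51. With the GC trend subtracted and the level kept, an alternative chosen after seeing the data, 3 list genes were higher and 1 lower, and with the trend subtracted together with its level 2 and 2. Most of the calls named above were thus not kept in either form. Calls over all 13055 genes fell as well, from 1710 to 382 and 360, so the fall is not particular to the lists. The count of higher list genes was 3 without KO rod replicate 1 or 2 and 4 without Het rod replicate 1. Calls over all genes, in either direction, were then 1302, 1102 and 888.

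**Figure D5:**
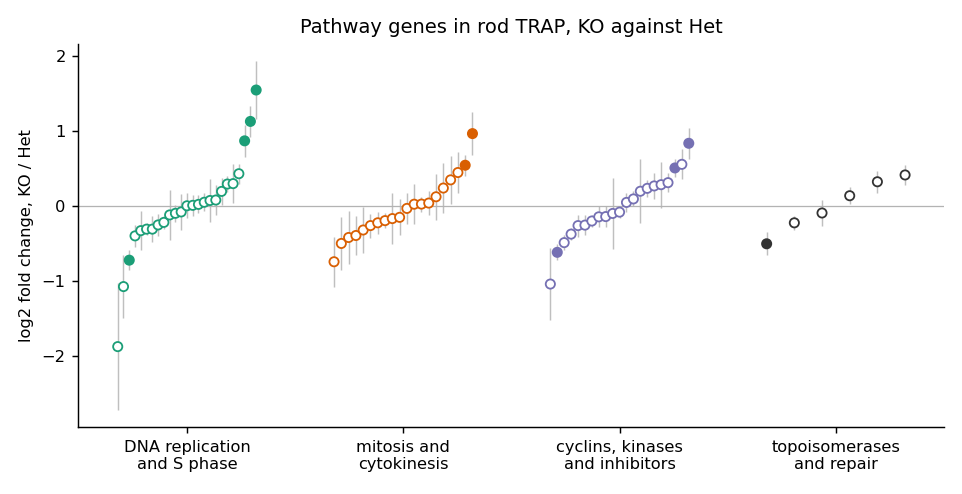
Log2 fold change of the list genes in rod TRAP, KO against Het, with the standard error as a bar; filled points passed both limits. The 10 filled points run from -0.72 (Prim1) to 1.55 (Fen1).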

How the data were processed

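RNA was sequenced in 12 libraries, 3 per genotype and fraction. Per the labels, the submitters' processing notes name CASAVA 1.8.2, HISAT2, DESeq2, edgeR and GRCm39, with no roles. The values the authors deposited are a signal proportional to read counts, scaled by 1 factor per library and rounded (inferred from the values). A count model was therefore not used. Values were TMM-scaled, raised by 2, log2-transformed and compared with limma 3.58.1 (R 4.3.3, trend and robust, Benjamini-Hochberg adjustment). Genes needed a value of 10 in 3 libraries and a sum of 15. Lengths, GC content and biotypes came from GENCODE GRCm38 by Ensembl identifier, GC being known for 91.8% of genes. The members and lists were chosen with earlier results of these data known. Named genes are the members, from each list the 4 with the highest mean and at most 5 called with the largest changes per comparison, and the 5 most like Top2a per fraction. Not all are printed. Rod-depleted genes were kept in the KO against Het rods fit, unlike in the study. In Het mice every rod and retina pair of the same number, taken from the titles, correlated above 0.1 (0.251 to 0.468). The table held 0 columns of other samples. Scripts were tested on simulated data. Python 3.11.15 and matplotlib 3.10.9 were used.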

Additional observations from a re-analysis of the deposited data

How the results depend on the processing

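Counts of list genes are given as higher and lower in the first group. Library size alone gave 14 and 25 (Het rods against retina) and 11 and 25 (KO rods against retina). The GC trend subtracted together with its level gave 50 and 7 in Het mice, also with the replicate block, and 55 and 7 in KO mice, or 56 and 8 with the block. That subtraction also recentres each library, and in Het mice it called 13463 of 16110 genes, against 9395 in the main fit. A form that keeps the mean level was added after its result was seen and gave 28 and 19 for Het and 29 and 16 for KO mice. Leaving out 1 library gave 19 to 26 and 7 to 13 in Het mice, 19 to 28 and 9 to 14 in KO mice, and 0 in KO against Het retina. The lower count was 7 without Het retina replicate 1 and 8 without replicate 3, and without KO retina replicate 1 the KO counts were 19 and 9. For KO against Het rods, the counts were 2 higher with the GC trend subtracted, 1 higher with the block as well, 3 higher and 1 lower with the level kept, and 2 and 1 with the block as well. Calls over all 13055 genes in these settings were 360, 420, 382 and 457, against 1710 in the main fit. The replicate block alone gave 6 lower, and single libraries left out gave 3 to 7 and 2 to 4. RLE scaling, other pseudocounts, no filter and the removal of rod-depleted genes moved no count by over 1.5 times.

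Leaving out 1 library turned the sign of the log2 change of Top2a in KO rods against retina (-0.14 to 0.10), and in KO against Het retina of Top2b (-0.29 to 0.11, with 0.03 also turned), Ccnd1 (-0.10 to 0.59) and Rrm2 (-0.0048 to 1.16). In KO against Het rods it turned that of Ccnd1 (-0.44 to 0.19). The log2 Top2a to Top2b ratio difference ranged from 0.53 to 3.03 (Het rods against retina), -1.92 to 0.54 (KO rods against retina), -0.57 to 1.32 (KO against Het retina, with -0.42 and -0.49 among the turned values) and -3.64 to -1.16 (KO against Het rods). A pseudocount of 0 gave no value with KO rods, as Top2a is 0 in 1 library. Top2a failed the filter in KO rods against retina when any of 4 libraries was left out. The causes were not tested.

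Same-numbered libraries correlated at -0.0137 to 0.334 in KO rods and retina, -0.585 to 0.404 in KO and Het retina and 0.0263 to 0.183 in KO and Het rods, so not every pair was over 0.1 and the block is not given beside those results. Single genes such as Spc25 and Mcm6, and the lens genes, did follow the number in KO rods and retina. In Het rods against retina the block changed the call of Top2a and of no other member. Ccnd1 there lost its call with the GC trend subtracted together with its level (-0.86). With the block, Spc25 in KO rods against retina had an adjusted p of 0.026 from limma. Depth limits the 6 scarce members in rods, where their values lie near 3 reads.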
